A study of Mus musculus with 4 samples.

Results

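The subject of these results was a set of 10 genes that encode the contractile apparatus of smooth muscle, chosen by name among the 27487 genes listed in the 4 count tables: *Acta2*, *Myh11*, *Myl9*, *Tagln*, *Tpm1*, *Tpm2*, *Cald1*, *Mylk*, *Lmod1* and *Cnn1*. They were followed across the cell types of the mouse neocortex and between the genotypes. Single-cell libraries were made by Drop-seq, which captures the 3′ ends of polyadenylated RNA on barcoded beads and counts molecules by unique molecular identifiers (UMIs). Each of the 4 libraries pooled the neocortex of 9 mice aged 24 weeks, 36 mice in all, one library for each of female WT, female Tg2576, male WT and male Tg2576. Tg2576 mice were heterozygous for a human amyloid precursor protein transgene with the Swedish mutations, on a mixed B6;SJL background, and the WT mice were their littermates without it. The transgene is driven by the hamster prion protein promoter. All mice were perfused and their tissue was dissociated with enzymes, so the cells described are those that survived this treatment. Because the animals were pooled, each sex and genotype was 1 sample, and the spread between animals could not be measured.

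Contraction of smooth muscle rests on sliding of actin and myosin filaments. A rise in calcium activates myosin light chain kinase (*Mylk*), which phosphorylates the regulatory light chain (*Myl9*) of smooth muscle myosin (heavy chain *Myh11*), and the motor then pulls on filaments of smooth muscle actin (*Acta2*). Tropomyosins (*Tpm1*, *Tpm2*), caldesmon (*Cald1*), calponin (*Cnn1*) and transgelin (*Tagln*) lie along the actin filament and tune this interaction, and leiomodin (*Lmod1*) nucleates it. In brain vessels, smooth muscle cells wrap arteries and arterioles, whereas pericytes sit on capillaries. Both are called mural cells, and they set vessel diameter together with the endothelium they cover.

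In the GRCm38.p6 assembly (mm10), *Acta2* spans chr19:34240336-34255585, *Myh11* chr16:14194527-14292188, *Myl9* chr2:156775408-156781657, *Tagln* chr9:45929628-45936058, *Tpm1* chr9:67022590-67049672, *Tpm2* chr4:43513726-43523583, *Cald1* chr6:34598495-34775469, *Mylk* chr16:34745199-35002436, *Lmod1* chr1:135324813-135368065 and *Cnn1* chr9:22099221-22109221. *Tagln* overlaps *Pcsk7*, *Tpm2* overlaps *Car9*, *Cald1* overlaps *Gm13861* and *Gm38787*, and *Mylk* overlaps *1700119H24Rik* and *E130310I04Rik*, so reads at those overlaps could be split between the genes. Many contractile genes are bound by serum response factor at the CArG box, a motif of CC, 6 bases of A or T, and GG that reads alike on both strands. RefSeq promoter windows were at hand for 8 of the 10 genes, *Myh11* and *Tagln* being without one. The 8 genes had 9 windows. In the 250 bases before the start, an exact CArG box stood in 1 of them, that of *Myl9*, compared with 1.47% of 32851 windows of all genes. Allowing 1 differing base, 5 of the 9 windows (55.6%), from 5 of the 8 genes, held a match, compared with 18.6% of all windows. The matches are shown with 10 bases on either side, 5′ to 3′ on the gene's strand, because the CArG box is a known feature of many contractile genes. Capitals mark the matched 10 bases. Distances are counted from the start on which each window was set, which is not always the outer end of the gene span given above. The *Acta2* and *Tpm1* matches lie inside those spans.
Myl9, exact, 161 to 152 bases before the start, chr2:156775293-156775322, plus strand: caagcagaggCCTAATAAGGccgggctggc
Myl9, 1 difference, 99 to 90 bases before, chr2:156775355-156775384, plus strand: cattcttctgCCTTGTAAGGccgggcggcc
Acta2, 1 difference, 84 to 75 bases before, chr19:34255438-34255467, minus strand: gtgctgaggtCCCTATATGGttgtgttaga
Acta2, 1 difference, 34 to 25 bases before, chr19:34255388-34255417, minus strand: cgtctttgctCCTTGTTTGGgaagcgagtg
Lmod1, 1 difference, 189 to 180 bases before, chr1:135324614-135324643, plus strand: gcccccttgtCTTTAAAAGGctaaactgct
Lmod1, 1 difference, 164 to 155 bases before, chr1:135324639-135324668, plus strand: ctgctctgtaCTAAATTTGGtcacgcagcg
Tpm1, 1 difference, 221 to 212 bases before, chr9:67049415-67049444, minus strand: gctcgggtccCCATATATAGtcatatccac
Tpm1, 1 difference, 80 to 71 bases before, chr9:67049274-67049303, minus strand: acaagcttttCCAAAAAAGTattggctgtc
Cald1, 1 difference, 203 to 194 bases before, chr6:34598291-34598320, plus strand: acggtttcaaGCTTTTTAGGacttggtttt
A match in these letters is a description of the window and not a binding site, and the windows of *Tpm2*, *Mylk* and *Cnn1* held none.

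The libraries held 1926857 to 2294296 UMIs in 3000 barcodes each. Barcodes with 200 to 7000 genes and at most 20% mitochondrial UMIs were kept, 4835 in all and 1010 to 1532 a library. Between any 2 libraries, 11 to 17 barcodes were shared, of which 2 to 4 were kept in both. The sexes fitted their labels by sex-linked genes, and *App*, the gene of the precursor, stood at 1575 and 1567 UMIs per 1000000 UMIs (CPM) in the female and male Tg2576 libraries against 888.5 and 1178 in WT. The 10 genes had 7532 UMIs, 6272 of them in kept cells, where the 4 libraries held 1310 (female WT), 1610 (female Tg2576), 1677 (male WT) and 1675 (male Tg2576). *Cnn1* had 2 UMIs in the kept cells and was not listed in the male WT table, and nothing further could be said of it.

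Cells were grouped by their transcriptomes with the 10 genes left out, and each cluster was called "X-like" from marker lists. A mural-like cluster of 143 cells, 2.96% of kept cells, was higher for 12 of 12 mural markers. It held 26 cells of the female WT, 37 of the female Tg2576, 31 of the male WT and 49 of the male Tg2576 library. Grouped again among themselves, again without the 10 genes, the mural-like cells fell into 3 classes. The 35 smooth muscle-like cells were higher for 10 of 12 smooth muscle markers other than the 10 genes, led by *Pln*, the regulator of the calcium pump. The 84 pericyte-like cells were higher for 12 of 12 pericyte markers and had *Abcc9* and *Kcnj8* among their leading genes. They were also higher than the other mural-like cells for 5 microglia and 3 fibroblast markers. The other 24 cells also carried endothelial RNA, with 8 of 8 endothelial markers higher. They had a median of 2655 UMIs a cell against 1226 in smooth muscle-like and 578 in pericyte-like cells. In these 24 cells 4 oligodendrocyte and 2 astrocyte markers were higher too. One marker on the smooth muscle list, *Casq2*, went against it, at 118.8 CPM in smooth muscle-like and 680.7 CPM in pericyte-like cells.

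The contractile genes were concentrated in 35 cells. These were 0.724% of the cells kept, and they held 36.9% of the 6272 UMIs (95% exact binomial interval 35.7 to 38.1). The whole mural-like cluster held 52.3% (51.1 to 53.6) and the 981 endothelial-like cells 32.9% (31.7 to 34.1). All intervals given for UMIs cover counting error only, and in such counts fewer cells of a type and less RNA per cell cannot be told apart. Per library, the mural-like share was 48.6% in female WT, 54.7% in female Tg2576, 61.8% in male WT and 43.4% in male Tg2576. The share depended on the cells kept and on the clustering. It was 10.6% with at most 10% mitochondrial UMIs, 43.4% without mural-like barcodes with 3 or more endothelial UMIs and 64.3% when the 10 genes were allowed to shape the clusters.

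The genes differed in how far they were confined. *Tagln*, *Myh11*, *Tpm2*, *Lmod1* and *Acta2* had between 63.7% (*Acta2*) and 70.9% (*Tagln*) of their UMIs in the smooth muscle-like cells. *Myl9* had 43.5%, *Mylk* 37.9% and *Cald1* 29.7% there, and these 3 genes had 12.4% to 15.3% of their UMIs in pericyte-like cells. *Tpm1* was the exception, with 17.7% in smooth muscle-like and 53.9% in endothelial-like cells.

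**Figure D1:**
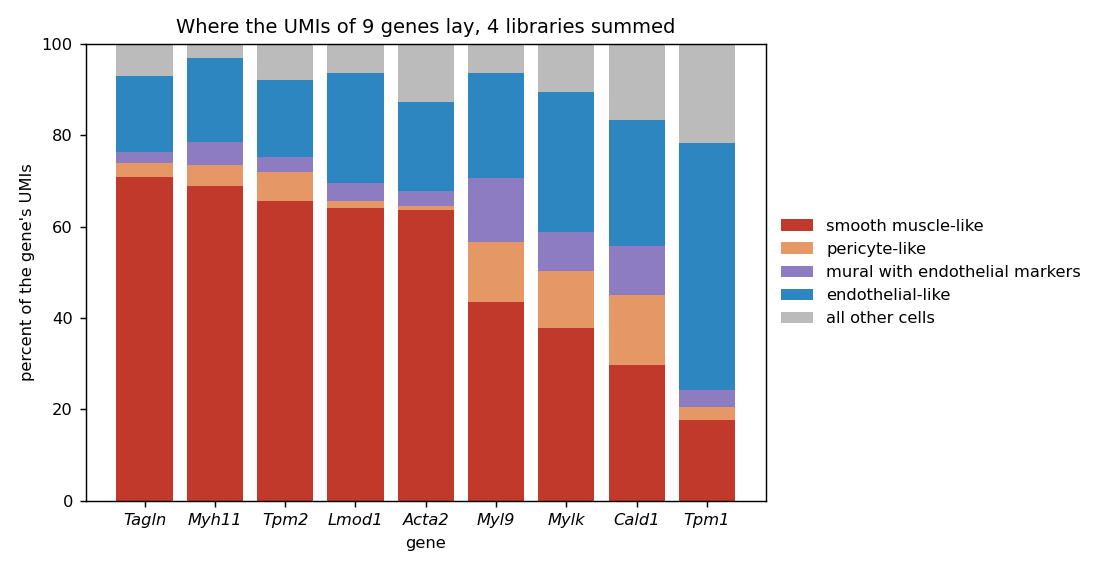
Stacked bars give, for 9 of the 10 genes (*Cnn1* had 2 UMIs), the percent of the gene's UMIs in kept cells that lay in each class of cells, with the 4 libraries summed. The smooth muscle-like part shrinks from 70.9% for *Tagln* to 17.7% for *Tpm1*, where the endothelial-like part reaches 53.9%.

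In smooth muscle-like cells, the motor and its filament were high in every library, from 3335 to 9003 CPM. *Acta2*, the actin of the contractile filament, stood at 4928 CPM in female WT, 3335 in female Tg2576, 6756 in male WT and 4928 in male Tg2576. *Acta2* in pericyte-like cells came from 4 UMIs in all, 1 in female WT and 3 in male Tg2576, and the other 2 libraries had 0. Every smooth muscle-like value thus lay above every pericyte-like value, and the pooled levels of 5040 and 73.6 CPM differed 68.5-fold (26.5 to 253). *Myh11*, the myosin heavy chain, was at 9003, 7162, 5937 and 5781 CPM in the same order of libraries, against 871.8, 504.8, 211.1 and 458.0 CPM in pericyte-like cells. The pooled ratio for *Myh11* was 13.8-fold (9.32 to 21.2), and the classes again did not overlap.

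The regulatory light chain and its kinase were less different. *Myl9* was at 2180, 2843, 3685 and 3980 CPM in smooth muscle-like cells of female WT, female Tg2576, male WT and male Tg2576, and at 326.9, 721.1, 1583 and 1328 CPM in pericyte-like cells, a 3.06-fold difference (2.26 to 4.19). In both classes the 2 male libraries were above the 2 female libraries. *Mylk* was at 2654, 1585, 1689 and 2464 CPM against 435.9, 793.2, 316.6 and 916.0 CPM, 2.82-fold (1.94 to 4.18). In both classes the male Tg2576 library was above the male WT library, whereas the female libraries changed order.

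Among the proteins along the filament, the spread between classes was wider. *Tagln* was at 1706, 1968, 1126 and 1327 CPM in smooth muscle-like cells, and 4 UMIs made up its pericyte-like level, giving 20.8-fold (7.83 to 77.8). *Lmod1* was at 1232, 1476, 1331 and 1516 CPM and had 2 UMIs in pericyte-like cells, so its ratio of 37.8 had an interval of 10.1 to 317. *Tpm2* was at 3412, 2679, 3378 and 3222 CPM against 544.9, 144.2, 316.6 and 366.4 CPM, 9.48-fold (5.83 to 16.3). *Tpm1* was at 5118, 3718, 6245 and 7676 CPM against 1090, 937.4, 527.7 and 1099 CPM, 5.76-fold (4.29 to 7.88). *Cald1* had the smallest difference, 1.80-fold (1.57 to 2.06), with 14880, 11370, 8190 and 9477 CPM in smooth muscle-like and 6430, 6418, 6966 and 4901 CPM in pericyte-like cells. Caldesmon RNA made up 61.4% of the contractile UMIs of pericyte-like cells against 27.0% in smooth muscle-like cells.

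Of the 9 genes with 10 or more UMIs in the 2 classes together, 8 were at least 2-fold higher in smooth muscle-like cells. *Cald1* was below that fold. For 9 of 9 every smooth muscle-like library lay above every pericyte-like library. *Acta2*, *Tagln* and *Lmod1* had 4, 4 and 2 UMIs in pericyte-like cells. These 3 genes passed the limit only through the class where they were high. Of 2388 genes measured by the same limit, 21.4% were at least 2-fold higher and 17.3% at least 2-fold lower. For 6.24% the libraries did not overlap in the higher direction. The median log2 difference was 3.17 for the 9 genes and 0.03 for all genes, with 20 CPM added to each level. The classes were defined from the other genes of the same cells, so these values are a description without a test. Of 8 endothelial markers, 6 were measured and 4 were at least 2-fold higher in smooth muscle-like cells too, with a median log2 difference of 2.10. The 8 markers summed to 1.90 UMIs per 1000 in smooth muscle-like and 0.865 in pericyte-like cells, and 68 of their 112 smooth muscle-like UMIs lay in 1 barcode of the male WT library. Without that barcode the smooth muscle-like value was 0.935 per 1000, and the part of this RNA in the differences was not tested. The median of 578 UMIs in pericyte-like cells left many genes at 0 in single libraries.

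**Figure D2:**
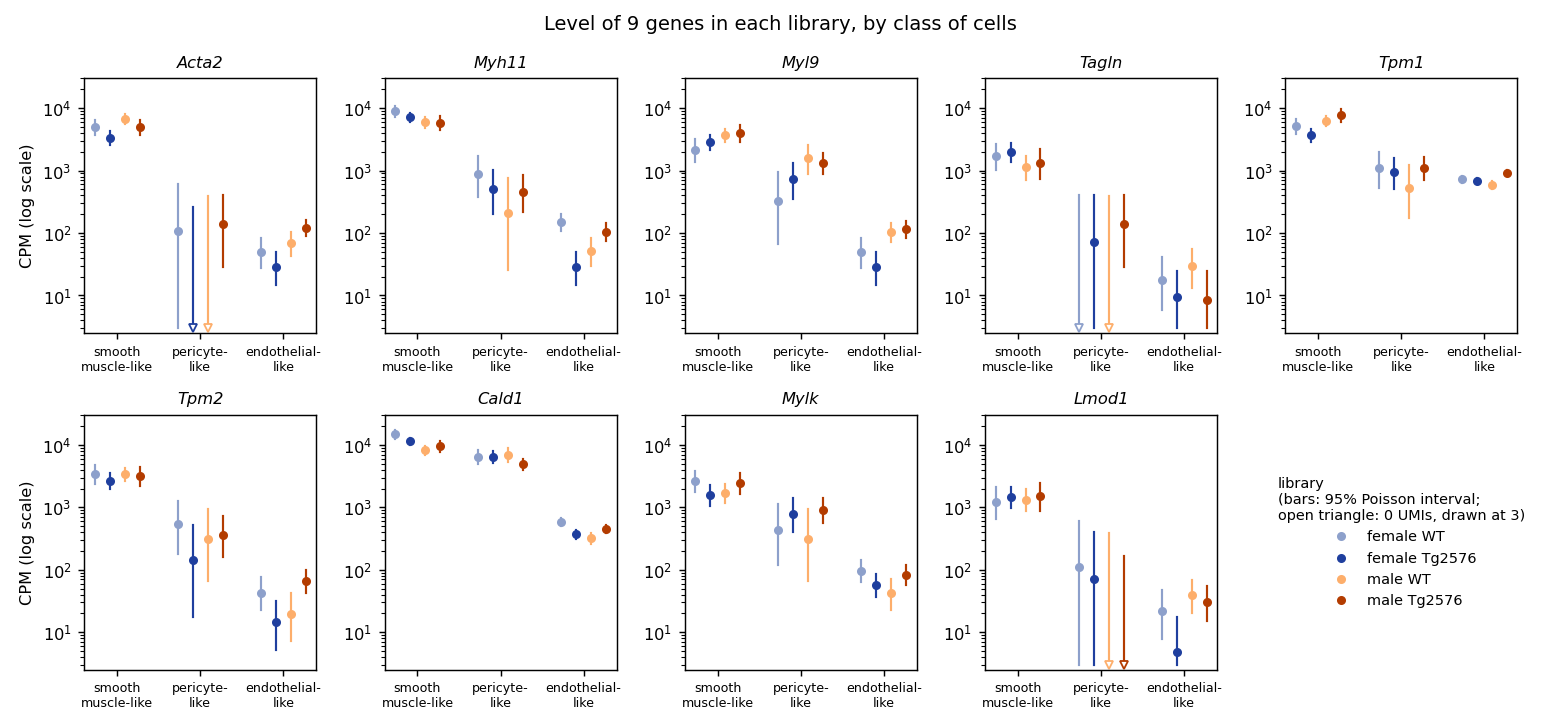
Each panel plots 1 gene as CPM on a log scale in smooth muscle-like, pericyte-like and endothelial-like cells of the 4 libraries, with bars for the 95% Poisson interval and open triangles for libraries with 0 UMIs. The smooth muscle-like points lie above the pericyte-like points for each of the 9 genes, narrowly for *Cald1* (lowest 8190 against highest 6966 CPM).

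The set was also seen together in single cells. Smooth muscle-like cells had UMIs of a median of 9 of the 10 genes (range 2 to 9), and 31 of the 35 had 5 or more. Pericyte-like cells had a median of 2 genes (0 to 8) and 3 of 84 had 5 or more. To compare the shares of cells at one depth, each cell was thinned to 500 UMIs, which left out 4 smooth muscle-like and 32 pericyte-like cells. At that depth *Myh11* was found in 90.3% of 31 smooth muscle-like cells (97.1% unthinned), 11.5% of 52 pericyte-like cells (11.9% unthinned) and 0.119% of 1686 microglia-like cells (0.161% unthinned). *Acta2* was found in 80.6% (80.0% unthinned) of the smooth muscle-like and in 0 of 52 pericyte-like cells, a share under 6.85% by the exact interval (2.38% unthinned), and in 0.297% of microglia-like cells (1.56% unthinned). *Cald1* was found in 100% of the smooth muscle-like and 92.3% of the pericyte-like cells (100% and 96.4% unthinned), against 1.07% of microglia-like cells (2.15% unthinned). Microglia, which should lack the contractile set, had a median of 1164 UMIs unthinned.

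Outside the mural-like cells, most of the 10 genes were low. Summed over the set, the level was 18010 CPM in mural-like, 1509 in endothelial-like and 1027 in OPC-like cells (oligodendrocyte precursors). It was 575 CPM in an unnamed cluster led by *Npy*, *Fabp7* and *Frzb*, 479 in neuron-like cells, 464 in a mixed cluster of macrophage, ependymal and progenitor markers, and 329 in choroid plexus-like cells. The lowest sums were 220 CPM in oligodendrocyte-like, 105 in astrocyte-like and 80.2 CPM (192 UMIs) in microglia-like cells. *Acta2* had 29 UMIs in 29 of 1862 microglia-like cells, 1 in each, in all 4 libraries, whereas *Myh11* had 3 UMIs there. In mural-like cells the order of these 2 genes was the other way, with 316 *Acta2* and 459 *Myh11* UMIs.

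**Figure D3:**
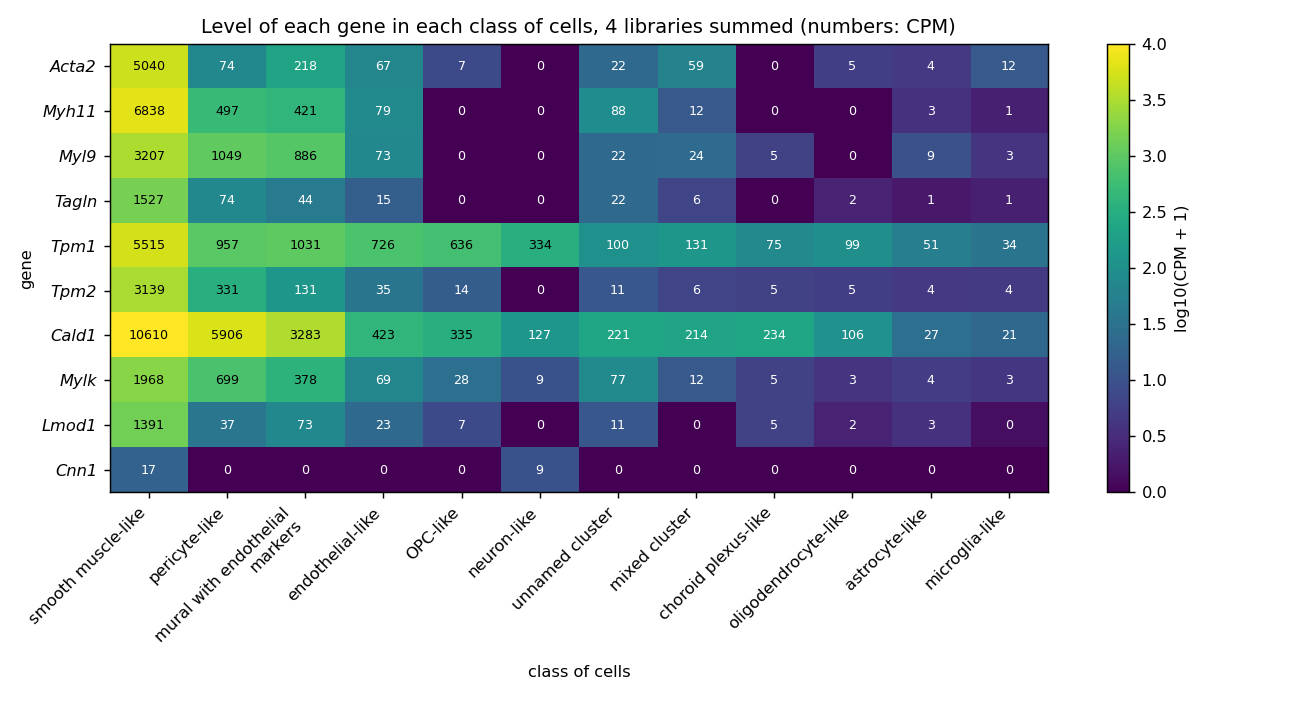
Colour and numbers give the level of each of the 10 genes (rows) as CPM in each class of cells (columns), with the 4 libraries summed and colour on a log10(CPM + 1) scale. Smooth muscle-like cells hold the highest value in each row, and only *Tpm1* and *Cald1* stay above 100 CPM in endothelial-like, OPC-like and neuron-like cells.

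*Tpm1* and *Cald1* had levels of their own beyond the mural cells. *Tpm1*, which also encodes tropomyosins of the cytoskeleton of other cells, was at 636 CPM in OPC-like cells (91 UMIs) and 334 CPM in neuron-like cells (37 UMIs), above astrocyte-like (51.3 CPM) and microglia-like cells (33.9 CPM). In endothelial-like cells it was at 724.4 CPM in female WT, 680.2 in female Tg2576, 582.8 in male WT and 901.8 in male Tg2576. *Cald1* was at 335 CPM in OPC-like, 234 in choroid plexus-like and 127 CPM in neuron-like cells.

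Part of the endothelial-like signal came from barcodes that also held mural RNA. Of the 981 endothelial-like cells, 234 had at least 1 UMI among 22 mural or smooth muscle markers, leaving *Gkn3* and *Synpo2* aside, which were higher in endothelial-like than in mural-like cells. In the other 747 cells, with a median of 842 UMIs against 1389 in the 234, *Tpm1* was at 622.8 CPM (569.8 to 679.6) and *Cald1* at 141.6 CPM (116.9 to 169.9). *Acta2* had 6 UMIs in the 747 cells, *Myl9* 5, *Myh11*, *Tpm2* and *Lmod1* 2 each, and *Tagln* 0. In the 234 cells *Acta2* was at 153.2, *Myh11* at 191.1 and *Cald1* at 834.6 CPM. *Tpm1* was at 876.1 CPM (799.9 to 957.5) in the 234 cells. Of its 992 endothelial-like UMIs, 506 lay in cells without a mural marker, as did 6 of 91 for *Acta2* and 2 of 108 for *Myh11*. When the 10 genes were allowed to shape the clusters, *Acta2* fell to 14 UMIs (10.8 CPM) and *Myh11* to 18 UMIs (13.9 CPM) in endothelial-like cells, and *Tpm1* stood at 654.5 CPM. The split was chosen after these values were seen, and deeper barcodes were more likely to show a marker.

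Few barcodes carried most of the *Acta2* and *Myh11*. Those with 5 or more UMIs of the 2 genes together numbered 49 of 4835 and held 86.5% of all such UMIs. Of the 49, 33 were mural-like and 14 endothelial-like, and 21 had 3 or more UMIs of endothelial markers. The 21 had a median of 3876 UMIs and the other 28 a median of 1368 UMIs. The doublet caller marked 92 of the 4835 cells, and without them the mural-like share was 53.1%. The part that pairs of cells had in these 21 barcodes was not tested.

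**Figure D4:**
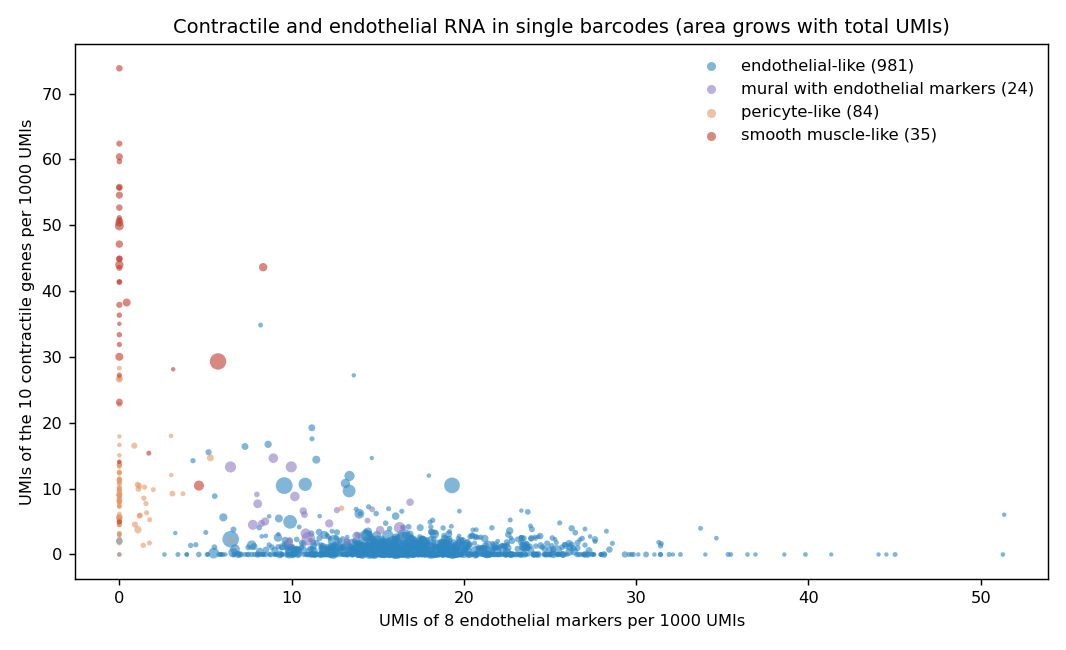
Each point is 1 barcode of the 4 classes, with UMIs of 8 endothelial markers (x axis) and of the 10 contractile genes (y axis) per 1000 UMIs, and an area that grows with its total UMIs. Smooth muscle-like barcodes (35) stand along the left edge at a median of 43.5 contractile UMIs per 1000, endothelial-like barcodes (981) lie low at a median of 0.555, and large barcodes with both kinds of RNA lie between.

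One barcode of the male WT library stood apart. It had 11872 UMIs, 348 of them contractile, against 150 in the next, and 68 UMIs of endothelial markers. It gave 33.6% of the contractile UMIs of male WT mural-like cells and 60.8% of all UMIs of male WT smooth muscle-like cells. Without it, 9 of 9 genes still had every smooth muscle-like library above every pericyte-like one, and *Cald1* passed 2-fold (2.01, 1.75 to 2.31). The genotype ratios of males that it moved are given both ways below.

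As a list, the relatives of these genes in other cells did not share the pattern. Of 18 non-muscle relatives and paralogues, 10 were measured in the 2 mural classes, with a median log2 difference of -0.15. In smooth muscle-like cells 2 were at least 2-fold higher and 2 at least 2-fold lower, near the 21.4% and 17.3% of all genes measured. *Actb*, the cytoskeletal actin, was at 5701 CPM in smooth muscle-like and 4103 CPM in pericyte-like cells, and 2.81% of its UMIs lay in mural-like cells against 67.8% for *Acta2*. *Myl6*, the essential light chain that smooth muscle myosin also uses, was higher at 1324 against 276.0 CPM (4.80-fold), as was *Cnn2*, a calponin of other cells, at 305.4 against 110.4 CPM (2.77-fold). *Myh9*, a non-muscle myosin heavy chain, was lower in smooth muscle-like cells, with 118.8 against 441.6 CPM. *Tpm4*, a cytoskeletal tropomyosin, was at 509.1 and 515.2 CPM. *Actg1* had 120 UMIs against 27964 for *Actb*, and since near-identical copies of it exist in the genome its counts are uncertain.

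Genes that control contraction were higher in part. Of 26 such genes, 19 were measured, and the median log2 difference was 1.37. In smooth muscle-like cells 11 were at least 2-fold higher and 1 at least 2-fold lower, compared with 21.4% and 17.3% of all genes measured. *Pln*, *Pdlim3* and *Kcnmb1*, counted among the higher genes, were also on the smooth muscle marker list that named the class. Their direction was thus not independent of that naming. *Ppp1r12a*, the targeting subunit of myosin phosphatase, was at 1799 CPM in smooth muscle-like and 331.2 CPM in pericyte-like cells (5.43-fold). *Rock1*, the kinase that inhibits this phosphatase, was at 984.2 and 478.4 CPM (2.06-fold). The 1 gene at least 2-fold lower was *Smtn*, at 33.94 against 165.6 CPM, from 2 and 9 UMIs. Of 20 transcriptional and signalling regulators of the contractile programme, 6 were measured and 1 was at least 2-fold higher, against 21.4% of all genes. That gene was *Klf4*, a zinc finger factor known to repress smooth muscle genes, at 746.6 against 91.99 CPM. *Hes1* was at 848.4 and 551.9 CPM and *Notch3* at 339.4 and 386.4 CPM. *Myocd*, the coactivator of serum response factor in smooth muscle, had 2 UMIs in all kept cells, both in smooth muscle-like cells.

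Over 36 sums of a class of cells in a library, the genes outside the set whose log2(CPM + 10) was most like the summed set were *Pde3a* (Pearson's r = 0.86), *Aspn* (0.86), *P2ry14* (0.85), *Higd1b* (0.85) and *Ndufa4l2* (0.84), among 9020 genes. Within the set r with the sum ran from 0.83 (*Acta2*) to 0.96 (*Cald1*) for the 9 genes other than *Cnn1*. The points share libraries and depth, and the sum includes the genes of the set. Within the mural cells the likeness did not hold for each of the 5. *Pde3a*, a phosphodiesterase, was at 1341 CPM in smooth muscle-like and 110.4 in pericyte-like cells, whereas *Aspn*, *P2ry14*, *Higd1b* and *Ndufa4l2* were higher in pericyte-like cells (475.1 against 956.7 CPM for *Aspn* and 220.6 against 1288 CPM for *Higd1b*).

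Between genotypes, no change of the contractile genes was detected. UMIs were summed per library and tested with edgeR (quasi-likelihood test, terms for sex and genotype, 2 libraries a genotype), with Benjamini-Hochberg adjustment over all genes tested. In mural-like cells 0 of 9 genes tested were called at an adjusted p under 0.05, where 0.125% of 802 genes were. In all kept cells it was 0 of 9 (0.832% of 12736 genes), and in endothelial-like cells 0 of 8 (0.136% of 5869 genes). At an unadjusted p under 0.05 the count was also 0 in each of the 3, and DESeq2 called 0. Of all genes tested by edgeR, 57 of 802, 1033 of 12736 and 358 of 5869 were under 0.05 unadjusted. Across alternatives the calls stayed at 0, but the values moved. With at most 10% mitochondrial UMIs, 4 of 9 genes tested in endothelial-like cells had an unadjusted p under 0.05, as had 204 of all 4271 genes. There 0 of 9 were above 0 with a median log2 difference of -0.56. With at most 5% it was 3 of 4 with a median of -1.5, and 26 of all 1017 genes. In all kept cells without mural-like barcodes with 3 or more endothelial UMIs, 4 of 9 had an unadjusted p under 0.05. Of all genes tested there, 1120 of 12678 did. In that setting 9 of 9 were above 0 with a median of 0.40. The design leaves 1 residual degree of freedom, and a p that misses the threshold does not show that the genotypes are alike.

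In mural-like cells the fitted log2 differences (Tg2576 over WT) ran from -0.40 ± 0.34 (SE) for *Acta2* to 0.45 ± 0.44 for *Tagln*, with adjusted p from 0.94 to 0.99 by edgeR. The median was 0.12 for the 9 genes and 0.01 for all genes tested. Without the barcode of male WT that stood apart, 8 of 9 were above 0 with a median of 0.25 and none was called. By edgeR 1 of the 9 had an unadjusted p under 0.05 (0.025), as had 61 of all 797 genes tested. Without mural-like barcodes with 3 or more endothelial UMIs, the median was -0.21 and 2 of 9 were above 0.

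Within each sex, 1 library stood against 1, and the ratio carries counting error only. In mural-like cells *Acta2* was at 1628 CPM in female WT and 1523 in female Tg2576, a log2 ratio of -0.10 (-0.64 to 0.45), and at 2210 in male WT and 1366 in male Tg2576, -0.69 (-1.16 to -0.25). The male WT barcode that stood apart held 62 of the 135 *Acta2* UMIs of that library, and without it male WT was at 1484 CPM and the male ratio -0.12 (-0.63 to 0.39). *Myh11* was at 3140 and 3570 CPM in females, 0.19 (-0.18 to 0.56), and 2047 and 1702 CPM in males, -0.27 (-0.70 to 0.16), or 0.16 (-0.32 to 0.64) without that barcode. *Myl9* was higher in the female Tg2576 library, 1571 against 988.4 CPM, 0.67 (0.05 to 1.31), and *Mylk* in the male Tg2576 library, 1277 against 736.8 CPM, 0.79 (0.20 to 1.39), or 1.11 (0.45 to 1.81) without it. *Tagln* in males went from 0.02 (-0.98 to 0.98) to 1.42 (0.08 to 2.93), from 7 and 17 UMIs. The sum of the set gave 0.18 (0.03 to 0.33) in females and -0.06 (-0.20 to 0.08) in males. For 0 of 9 genes were the intervals of both sexes on the same side of 0, as for 1.56% of 1347 genes with 10 or more UMIs in each sex. Without the male WT barcode that stood apart, the male ratio of the sum was 0.22 (0.07 to 0.37). Without mural-like barcodes with 3 or more endothelial UMIs, the ratios were -0.20 in females and -0.39 in males.

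The mural-like sums also depended on which cells they held. Smooth muscle-like cells were 23.1% of the mural-like cells in female WT, 35.1% in female Tg2576, 16.1% in male WT and 22.4% in male Tg2576, with exact intervals that overlapped (8.97 to 43.6% and 20.2 to 52.5% in females, 5.45 to 33.7% and 11.8 to 36.6% in males). By UMIs, which the sums follow, these cells held 30.7%, 43.5%, 32.0% and 23.6% of the mural-like UMIs in the same order of libraries. In males the Tg2576 share was thus higher by cells and lower by UMIs. The higher female Tg2576 sum went with the higher share, and the part of the share in the result was not tested. Smooth muscle-like cells numbered 6 in female WT, 13 in female Tg2576, 5 in male WT and 11 in male Tg2576. Among them alone the female ratio of the sum was -0.32 (-0.50 to -0.15) and the male ratio 0.07 (-0.10 to 0.25). Without the barcode that stood apart, which left 4 male WT smooth muscle-like cells, the male ratio turned to -0.37 (-0.57 to -0.17). *Acta2* there was at a lower level in both Tg2576 libraries, with -0.56 (-1.12 to -0.001) in females and -0.46 (-0.95 to 0.02) in males, or -0.89 (-1.44 to -0.35) in males without that barcode. *Myh11* in males went from -0.04 (-0.51 to 0.42) to -0.57 (-1.10 to -0.05). With all barcodes, *Myh11* in females and *Tpm2* in both sexes were also below 0. *Tpm1*, *Cald1* and *Mylk* were below 0 in females and above 0 in males. In females and males *Myl9* was at 0.38 and 0.11, *Tagln* at 0.21 and 0.24 and *Lmod1* at 0.26 and 0.19, with intervals that included 0. Without that barcode the male values of *Myl9* and *Lmod1* were -0.35 and -0.27, and that of *Tagln* 0.76. The median mitochondrial share of these cells was 11.2% and 11.3% in the female WT and Tg2576 libraries and 5.9% and 5.4% in the male ones.

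In all kept cells *Tpm1* was the 1 of 9 genes with both intervals on the same side of 0, where 2.88% of 13901 genes were. It stood at 223.4 CPM in female WT and 288.7 in female Tg2576, 0.37 (0.17 to 0.57), and at 276.9 in male WT and 320.7 in male Tg2576, 0.21 (0.03 to 0.39), or 0.39 (0.21 to 0.58) in males without the barcode that stood apart. The fitted difference was 0.24 ± 0.16 (SE) with an adjusted p of 0.77 by edgeR. *Tpm1* lies mostly in endothelial-like cells, which were 157 of 1044 kept cells in female WT, 306 of 1249 in female Tg2576, 203 of 1010 in male WT and 315 of 1532 in male Tg2576. *Myl9* was the 1 of 9 genes with intervals on opposite sides of 0 (1.27% of all genes), 0.62 (0.11 to 1.15) in females and -0.42 (-0.76 to -0.08) in males. Without the barcode that stood apart, the male *Myl9* ratio was -0.11 (-0.47 to 0.24), from 134 and 133 UMIs.

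In endothelial-like cells the summed set went opposite ways in the sexes. The ratios of *Tagln* and *Lmod1* were below 0 in both, with intervals that included 0. The sum of the set was at 1743 CPM in female WT and 1220 in female Tg2576, -0.52 (-0.70 to -0.33), and at 1253 in male WT and 1884 in male Tg2576, 0.59 (0.41 to 0.77). *Myh11* gave -2.40 (-3.46 to -1.44) in females, from 42 and 12 UMIs, and 1.02 (0.15 to 1.97) in males, from 16 and 38 UMIs. Of 7 genes with 10 or more UMIs in each sex, 3 had intervals on opposite sides of 0 (*Myh11*, *Tpm2* and *Cald1*), as had 0.82% of 7435 genes. UMIs of the set lay in 532 of the 981 endothelial-like cells, those of *Cald1* in 188 and those of *Tpm2* in 21. The *Acta2* and *Myh11* counts came from few barcodes. In the 4 libraries 4, 2, 2 and 6 endothelial-like barcodes with 5 or more *Acta2* and *Myh11* UMIs held 77.4% of the UMIs of the 2 genes. In endothelial-like cells without a mural marker the ratios of the summed set were -0.01 (-0.34 to 0.32) in females and 0.29 (-0.04 to 0.62) in males, and those of *Tpm1* -0.12 (-0.50 to 0.28) and 0.36 (-0.01 to 0.73).

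**Figure D5:**
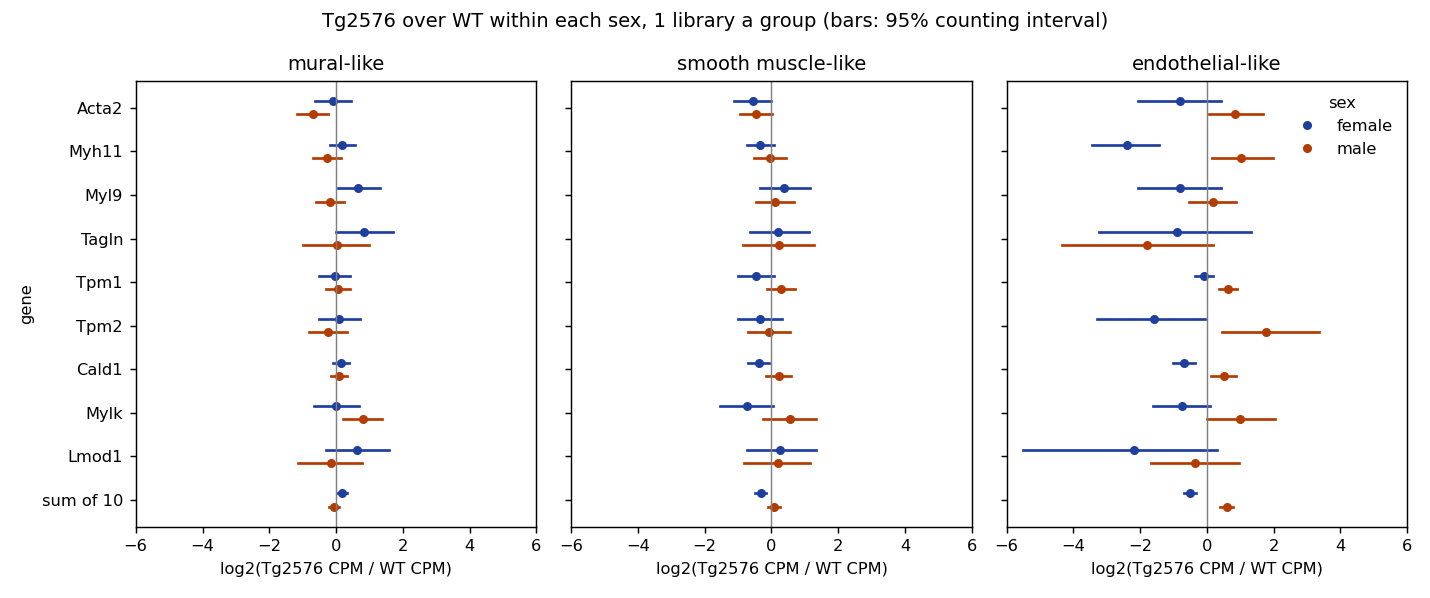
Points give log2(Tg2576 CPM / WT CPM) for 9 genes and the sum of the 10 within each sex, in mural-like, smooth muscle-like and endothelial-like cells, with bars for the 95% counting interval. For the sum, the female and male points are 0.18 and -0.06 in mural-like, -0.32 and 0.07 in smooth muscle-like and -0.52 and 0.59 in endothelial-like cells.

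Among the other lists, by edgeR's quasi-likelihood test of genotype, 0 of 9 non-muscle relatives, 0 of 9 genes that control contraction and 0 of 3 regulators tested were called in mural-like cells. In all kept cells 1 of 22 genes that control contraction was called higher in Tg2576. It was *Ryr2*, a calcium release channel, named after its values were seen, with a log2 difference of 1.68 ± 0.46 (SE) and an adjusted p of 0.042. Only 5 of its 74 UMIs in kept cells lay in mural-like cells, and in endothelial-like cells it was at 0.73 CPM. The call was kept in 4 of 9 alternatives, with adjusted p from 0.028 to 1. In endothelial-like cells 1 of 8 regulators was called lower, *Klf4*, also named after its values were seen, with -1.01 ± 0.17 and an adjusted p of 0.043. Its call was kept in 2 of 11 alternatives (adjusted p from 1.9e-05 to 1.00). None of 14 relatives tested in all kept cells or of 11 in endothelial-like cells was called.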

How the data were processed

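Per the labels, single cells of pooled mouse neocortex were sequenced after Drop-seq, and the authors deposited 1 table of UMI counts per library, genes by barcodes, not normalized, with 3000 barcodes each. The submitters' processing notes name mm10 and Seurat 3.1.4; the aligner and counter settings are not given in the sources used here. Counts follow captured 3′ ends and not transcript length. Barcodes with 200 to 7000 genes and at most 20% mitochondrial UMIs were kept, because a limit of 5% would have left 14.5% to 55.6% of barcodes with that many genes and no mural-like cluster. Cells were clustered with Seurat 5.3.0 (sctransform 0.4.2, 2500 variable genes without the 10 genes, mitochondrial and sex-linked genes, 19 components, resolution 0.5). Clusters were named where at least 3 markers of a list were 2-fold higher, and as mixed where a second list had 6 or more, a rule set after the clusters were seen. CPM used Poisson, ratios conditional binomial and shares Clopper-Pearson 95% intervals. Tests used edgeR 4.0.16 (filterByExpr, TMM, sex and genotype) and DESeq2 1.42.0. edgeR was also run on artificial counts with known differences. Of genes set at a log2 difference of 1, it recovered 19.4% in mural-like, 53.2% in all kept and 10.5% in endothelial-like cells. At a log2 difference of 2 the values were 72.8%, 86.8% and 78.1%. It called 16 unchanged genes in all kept cells and 0 in mural-like and endothelial-like cells. Doublets were called with Scrublet and kept in. The 10 genes were named, of each other list the counts and the 3 genes highest in mural-like cells, less 1 gene that is not reported here, and the nearest relatives of the 10 genes. *Casq2*, *Myocd*, *Smtn*, *Pdlim3* and *Kcnmb1* were named after their values were seen. The genes and lists were chosen with earlier results of these data known. The alternatives were other mitochondrial, gene, resolution and scaling settings, thinning to 500 UMIs, and, chosen after seeing the data, leaving out the barcode with most contractile UMIs or barcodes with mixed RNA.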

Additional observations from a re-analysis of the deposited data

Results flagged for a closer look

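The genotype ratios of 5 measures stood on opposite sides of 0 in the 2 sexes, each with a counting interval that excluded 0. The difference between the sexes was not tested, since each sex and genotype was 1 library. In endothelial-like cells the log2 ratio of Tg2576 over WT was -2.40 in females and 1.02 in males for *Myh11*, -1.59 and 1.78 for *Tpm2*, -0.68 and 0.50 for *Cald1*, and -0.52 and 0.59 for the sum of the 10 genes. In all kept cells *Myl9* gave 0.62 in females and -0.42 in males. Opposite sides with both intervals excluding 0 were seen for 1.27% of 13901 genes in all kept cells and for 0.82% of 7435 genes in endothelial-like cells. The male *Myl9* value rested on 1 male WT barcode with 33 of its 167 UMIs, and was -0.11 (-0.47 to 0.24) without it.

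Barcodes over the mitochondrial limit entered no comparison but the alternative with no such limit. In females the contractile UMIs among them, per 1000000 UMIs of non-mitochondrial genes, were at 657.6 in WT (111 UMIs) and 1589 in Tg2576 (438 UMIs), a log2 ratio of 1.27 (0.97 to 1.59). The corresponding male values were 1068 (43 UMIs) and 683.8 (13 UMIs). Of the 7 *Cnn1* UMIs of the 4 libraries, 4 lay in these barcodes of the female Tg2576 library.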

How the results depend on the processing

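No contractile gene was called by genotype in mural-like, all kept or endothelial-like cells in the main analysis or under 12, 11 and 11 alternatives that changed the sums or the fit. The share of contractile UMIs in mural-like cells was 52.3%, and became 10.6% with at most 10% mitochondrial UMIs, 46.6% at resolution 1, 64.3% with the 10 genes among the variable genes, 49.5% without the barcode with most contractile UMIs and 43.4% without mural-like barcodes with 3 or more endothelial UMIs. With at most 5% mitochondrial UMIs no cluster was named mural, so that setting gave no value for mural-like cells. The female log2 ratio of the sum in mural-like cells was 0.18 and became 0.46 with the 10 genes among the variable genes and -0.20, reversed, without barcodes with endothelial UMIs. The male ratio was -0.06 and became 0.53 with at most 10% mitochondrial UMIs, 0.12 with at least 500 genes per cell, 0.30 at resolution 1, 0.22 without the barcode with most contractile UMIs and -0.39 without barcodes with endothelial UMIs. At resolution 1 the male WT mural-like cells held 689 contractile UMIs, the same count as without the barcode with most contractile UMIs. The cause was not tested, except that each setting changes which cells are summed. The other alternatives moved the ratios within their counting intervals. The number of all genes called in all kept cells was 106 and became 7 with DESeq2, 8 without sex as a covariate, 9 and 5 with at most 5% and 10% mitochondrial UMIs, 57 with no such limit, 37 without the barcode with most contractile UMIs and 139 without mural-like barcodes with endothelial UMIs. In mural-like cells it was 1 and ranged from 0 to 5, and in endothelial-like cells 8, ranging from 0 to 28. No paired analysis was possible because each group was 1 library and the labels give no shared replicate numbers. The mural values rest on 143 cells and 182134 UMIs, and *Cnn1* could not be assessed.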
